A study of Homo sapiens with 9 samples.

Results

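The keratin genes were examined in TC32 cells, a line of Ewing sarcoma with the EWS::FLI1 fusion gene, after silencing of that fusion. The members were chosen by symbol alone, as the rows of the count table whose gene symbol is KRT followed by digits alone, which gave 50 of the 60603 genes in the table, 27 of type I and 23 of type II. Keratins with a letter after the number, the keratin pseudogenes and the keratin-associated proteins are not members. No measured value entered the rule, although the family was taken up with earlier results of these data known.

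Keratins are the intermediate filament proteins of epithelial cells. A filament is built from heterodimers of 1 type I (acidic) and 1 type II (basic) keratin, so the types are made in pairs that differ between epithelia: KRT8 with KRT18 in simple epithelium, KRT5 with KRT14 or KRT15 in the basal layer of stratified epithelium, KRT1 or KRT2 with KRT10 above it, KRT4 with KRT13 in mucosa, and a separate set of hard keratins in the hair shaft. Ewing sarcoma is a tumor of mesenchymal or neural crest type whose cells carry vimentin filaments, and keratin protein is known in a minority of these tumors.

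RNA-seq was done on 3 groups of 3 libraries, each labelled as a biological replicate at 30 h. The labels show no split of the libraries into batches. The siEF group received an siRNA directed at the breakpoint of the fusion, cells labelled siNEG received a nonspecific one, and Media cells received neither. All libraries came from the same wild-type TC32 line grown in 10% FBS with L-glutamine, so the fusion was present in all 3 groups and the biological replicates share 1 cell line. The labels give polyA RNA and, for the library, a small RNA kit. Total counts per library ranged from 20727706 to 33134581, with the lowest in siEF replicate 2. FLI1, whose 3′ part is in the fusion transcript and which the table does not separate from it, had 1063, 725 and 1148 counts in siEF and 1537, 1646 and 1497 in siNEG. Its level in siEF was 78.1% of that in siNEG (log2 fold change -0.35, SE 0.06, edgeR adjusted p = 2.88e-05), with no overlap between the groups. The paper reports that the silencing was checked by qPCR, with a much larger change in expression than these counts show. It also states that FLI1 itself is not expressed in this cell type. The reason for the difference between qPCR and counts was not tested.

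Values below are expected counts, which need not be whole, or CPM, the count scaled to the TMM-adjusted size of the library, as mean ± SD with n = 3 libraries. To be called, a gene needed an adjusted p below 0.01 together with a log2 change larger than 1 in size. In bulk RNA, more cells with a transcript and more RNA per cell cannot be told apart.

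Of the 50 keratin genes, 31 had a count in at least 1 library and 19 had none in any of the 9. A count was found for 30 members in siEF, 16 in siNEG and 19 in Media. The number detected per library was 25 to 28 in siEF, 10 to 14 in siNEG and 11 to 15 in Media, although the siEF libraries included the shallowest. At 10 counts or more, 16 to 18 members were detected in each siEF library, 6 in each siNEG library and 5 or 6 in each Media library. A mean of at least 1 CPM was reached by 12 members in siEF and by 4 in siNEG and in Media. These 4 were KRT18, KRT17, KRT10 and KRT8, and they are the keratin genes that TC32 expressed at that level with the fusion unsilenced.

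**Figure D1:**
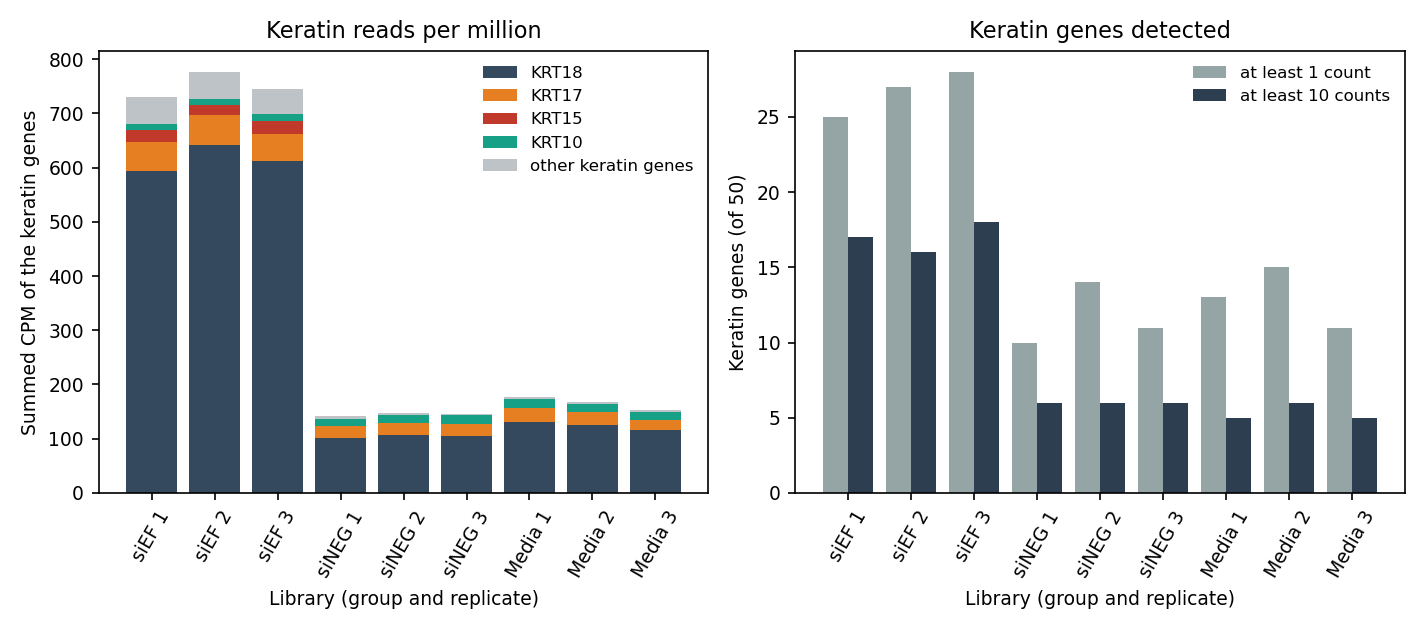
Left, CPM summed over the 50 keratin genes in each of the 9 libraries, stacked by gene; right, the number of keratin genes with at least 1 and at least 10 counts in each library. The siEF libraries reached 729 to 777 CPM and the siNEG libraries 141 to 147, with KRT18 the main part of every bar.

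Summed over all members, keratin RNA made up 750 ± 24.4 CPM in siEF, 145 ± 3.21 in siNEG and 166 ± 13.1 in Media. KRT18 alone gave 82.1 ± 0.651% of it in siEF, 72.0 ± 0.794% in siNEG and 75.4 ± 1.46% in Media. Without KRT18 the sum was 134 ± 1.15 CPM in siEF, 40.4 ± 0.874 in siNEG and 41.0 ± 5.63 in Media. The 3 siEF libraries lay above all 6 others on both sums.

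Of the members, 16 passed the filter on low counts and were tested, and 6 of these passed through the control libraries alone. Of those 6, KRT18, KRT8, KRT17, KRT80 and KRT40 were called higher in siEF than in siNEG, beside 17.1% of the 16093 genes tested, and KRT10 was not called. The median log2 fold change of the 6 was 2.36, beside 0.05 for all genes tested. The other 10 members passed only because they were high in siEF, so they had to differ and their number is no support. They were KRT4, KRT5, KRT7, KRT13, KRT14, KRT15, KRT16, KRT20, KRT36 and KRT81. Their fold changes below are descriptions, given without p-values. All 10 were called higher, which brings the members called higher to 15, KRT15 among them. None of the 6 that passed through the controls was called lower, beside 11.7% of genes tested. The 10 that passed only through siEF are left out of this comparison, as they had to differ. At an unadjusted p under 0.05, KRT10 was lower in siEF. Leaving out each library in turn gave 15 to 17 members called higher, those that passed only through siEF included, and 0 called lower.

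**Figure D2:**
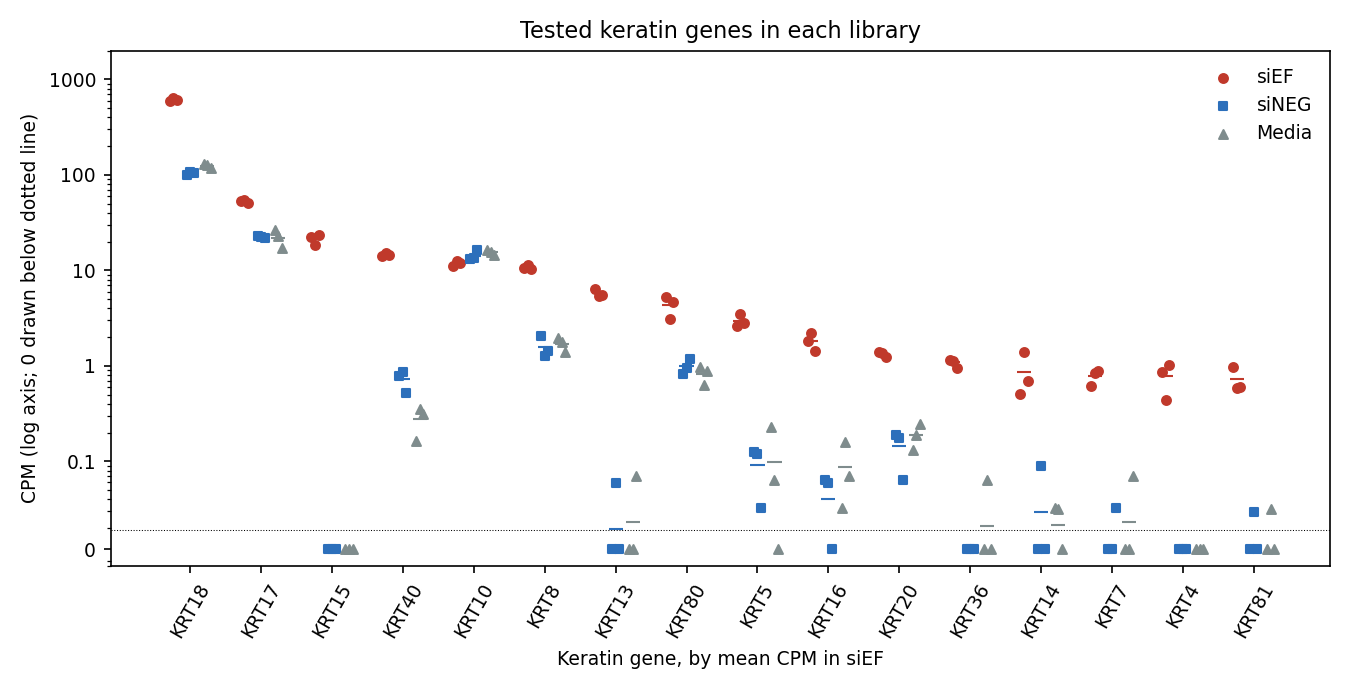
CPM of the 16 tested keratin genes in each library on a log axis, ordered by mean CPM in siEF; points are libraries, short lines are group means where these lie above the dotted line, and values of 0 are drawn below it. The siEF points lie above the siNEG points for every gene shown except KRT10, where they lie below. Of the genes shown, 10 passed the filter only through siEF and had to differ. For the 6 that passed through the controls it is 5, beside 39.8% of genes tested.

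All 5 members classed as keratins of simple epithelium had a count in siEF, and KRT18 and KRT8, which also passed the filter through the controls, were called higher. KRT18, the type I keratin of simple epithelium (chromosome 12, 52948871 to 52952906 on hg38, plus strand), had 16429, 13107 and 17854 counts in siEF, 3184, 3626 and 3267 in siNEG, and 4026, 3981 and 3346 in Media. This is 616 ± 24.4 CPM against 104 ± 3.19 and 125 ± 7.41. The siEF libraries did not overlap with either control, and the log2 fold change over siNEG was 2.56 (SE 0.05, adjusted p = 2.99e-16). By mean CPM, KRT18 ranked 190 of all genes in siEF, 2040 in siNEG and 1665 in Media.

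KRT8, its type II partner, is annotated on the opposite strand (chromosome 12, 52897187 to 52949954), and its full span overlaps that of KRT18 by 1084 bp. KRT8 has a RefSeq start 21393 bp from that of its canonical transcript, so the span joins transcripts with different starts. It had 294.93, 234.96 and 301 counts in siEF, 65, 43 and 45 in siNEG, and 60.01, 55.73 and 40 in Media. Every siEF library was above every control library, at 10.8 ± 0.613 CPM against 1.59 ± 0.413 in siNEG and 1.71 ± 0.286 in Media (log2 fold change over siNEG 2.77, SE 0.18, adjusted p = 4.14e-10). The size of this rise depends on the pseudogenes of KRT8, 50 of which are in the table. Their summed counts were 37.07, 27.04 and 60 in siEF, and 85, 109 and 77 in siNEG. They took 56.7 to 71.7% of the counts of gene and pseudogenes in siNEG but 10.3 to 16.6% in siEF. KRT8P12 was itself called lower in siEF (log2 fold change -1.16, SE 0.30, adjusted p = 0.00218). With the pseudogene counts added to the gene, an alternative chosen after the values were seen, the log2 fold change of KRT8 was 1.5 (adjusted p = 4.67e-09), still past the threshold. For KRT18, whose pseudogenes took 0.415 to 0.583% of the counts in siEF, it stayed at 2.56.

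Per kilobase of the canonical transcript, KRT18 was at 436 ± 17.2 CPM in siEF and 73.6 ± 2.24 in siNEG, while KRT8 was at 6.07 ± 0.345 and 0.89 ± 0.231. The partners were therefore far from equal in RNA. The ratio of KRT18 to KRT8 per kilobase was 71.9 ± 2.63 in siEF and 86.5 ± 22.6 in siNEG, whose libraries ran from 61.8 to 106 and included the siEF range of 70.3 to 74.9. With the pseudogene counts added to both genes the order turned, at 63.0 ± 0.379 in siEF and 30.5 ± 3.46 in siNEG with no overlap, so these data give no direction for the ratio.

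KRT7, a type II keratin of ductal and glandular epithelium, had 17, 17 and 26 counts in siEF, 0, 0 and 1 in siNEG, and 0, 0 and 2 in Media. Its log2 fold change over siNEG was 5.74 (SE 0.84), and with 1 count in all of siNEG the ratio was 75.1. The 95% counting interval of that ratio was 13.0 to 3020. Intervals and floors here cover counting error only. KRT7 shares 2887 bp on the same strand with KRT86. KRT20, a type I keratin of intestinal and urothelial surface cells, had 39, 28 and 36 counts in siEF, 6, 6 and 2 in siNEG, and 4, 6 and 7 in Media (log2 fold change over siNEG 3.17, SE 0.43). KRT7 and KRT20 passed the filter through siEF alone. KRT19, which is broadly expressed in simple epithelium, had 4, 1 and 1 counts in siEF and 0 in the other 6 libraries. That is too few for a fold, since both groups are near the floor of 3 counts per library.

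The 3 keratins of the basal layer were all detected in siEF, and all passed the filter through siEF alone. KRT15, a type I keratin of basal keratinocytes and of the hair follicle bulge (chromosome 17, 41513745 to 41522529, minus strand), had 623, 376 and 689 counts in siEF and 0 in all 3 siNEG and all 3 Media libraries. Its mean was 21.5 ± 2.74 CPM, at least 231-fold above siNEG and at least 217-fold above Media against a floor of 3 counts per library. It was the third most abundant keratin RNA in siEF by CPM. This rise was known when the family was chosen and is given with no test. KRT5, the type II partner of the basal layer, had 73, 71 and 82 counts in siEF, 4, 4 and 1 in siNEG, and 7, 2 and 0 in Media (log2 fold change over siNEG 4.93, SE 0.53). KRT14, the usual type I partner of KRT5, had 14.18, 28.18 and 20 counts in siEF, 0, 3 and 0 in siNEG, and 1, 1 and 0 in Media (4.58, SE 0.79). Both were above all control libraries. Without siNEG replicate 2, which held its 3 siNEG counts, the fitted value of KRT14 was 7.6, and against a group at 0 such a value depends on the prior count. The same holds for KRT13 (10.37) and KRT81 (7.4) without siNEG replicate 2 and for KRT7 (7.51) without siNEG replicate 3. In siEF the 2 type I keratins together exceeded KRT5 by 10.1 ± 2.24 times per kilobase, most of it from KRT15.

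KRT16 and KRT17 are type I keratins induced in stressed or wounded epidermis. KRT17 (chromosome 17, 41619442 to 41624842, minus strand) was the second most abundant keratin RNA in all 3 groups. It had 1473, 1110 and 1481 counts in siEF, 728, 760 and 675 in siNEG, and 802, 714 and 493 in Media. At 52.8 ± 1.84 CPM against 22.3 ± 0.681 in siNEG, it showed the smallest called rise of any member (log2 fold change 1.24, SE 0.10, adjusted p = 1.01e-08). KRT16, which passed the filter through siEF alone, had 50.58, 45.51 and 41.34 counts in siEF, 2, 2 and 0 in siNEG, and 1, 5 and 2 in Media (log2 fold change over siNEG 5.33, SE 0.59). Both genes have pseudogenes that could take or lend reads. Of gene plus pseudogene counts in siEF, the pseudogenes took 10.3 to 12.1% for KRT17 and 44.4 to 58.7% for KRT16. Adding them gave a log2 fold change of 1.27 for KRT17 (adjusted p = 2.63e-09) and 4.62 for KRT16. KRT6A, KRT6B and KRT6C, the type II partners of KRT16 and KRT17 in such epidermis, are not members under the symbol rule and were at 0 in all 9 libraries.

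No suprabasal keratin of epidermis was called. KRT10 (chromosome 17, 40818117 to 40822614, minus strand) had 304, 254 and 350 counts in siEF, 410, 458 and 509 in siNEG, and 496, 493 and 419 in Media. All siEF values in CPM lay below all siNEG values, at 11.8 ± 0.746 against 14.3 ± 1.81, but the difference was not called (log2 fold change -0.27, SE 0.10, adjusted p = 0.018). Against Media it was -0.40 (SE 0.10, adjusted p = 0.00154), also short of the fold required. KRT10 overlaps the antisense KRT10-AS1 by 3514 bp, and that gene had 248 to 360 counts in siEF and 245 to 323 in siNEG. The strand setting of the counting is not given in the sources used here, so reads of the pair cannot be told apart. KRT1 and KRT2, the type II partners of KRT10, and KRT77 were at 0 in all 9 libraries. KRT9, of palm and sole epidermis, had 3 counts in each siEF library, 0, 0 and 2 in siNEG, and 0, 1 and 0 in Media.

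In the mucosal pair, KRT13 (chromosome 17, 41500981 to 41505705, minus strand) had 176, 110 and 161 counts in siEF, 0, 2 and 0 in siNEG, and 0, 0 and 2 in Media. Its log2 fold change over siNEG was 7.86 (SE 0.52), with a ratio of 280 and a counting interval of 77.0 to 2320. KRT4, its type II partner, had 24, 9 and 30 counts in siEF and 0 in the other 6 libraries, at least 8.36-fold above siNEG. Both genes passed the filter through siEF alone. KRT13 reached 5.75 ± 0.527 CPM and KRT4 0.779 ± 0.304, so both appeared in siEF from 0 to 2 counts in the controls. KRT3 and KRT12 pair in cornea. KRT3 was at 0 in all libraries, and KRT12 had 1 count in a siNEG library, 4 in a Media library and 0 in siEF. KRT12 was the member with counts only outside siEF.

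The hair shaft keratins were the largest class, with 15 members. Of these, 11 had a count in siEF and 2, KRT40 and KRT81, had a count in siNEG. KRT40, a type I hair keratin of the cuticle (chromosome 17, 40977715 to 40987135, minus strand), had 397, 312 and 420 counts in siEF, 25, 29 and 16 in siNEG, and 5, 11 and 9 in Media. This is 14.7 ± 0.526 CPM against 0.719 ± 0.182 and 0.276 ± 0.0987, with no overlap among the 3 groups (log2 fold change over siNEG 4.34, SE 0.18, adjusted p = 1.93e-12). By CPM in siEF it followed KRT18, KRT17 and KRT15 and lay above KRT10 and KRT8.

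KRT36 and KRT81 passed the filter through siEF alone. KRT36, a type I hair keratin, had 32, 23 and 28 counts in siEF, 0 in siNEG, and 0, 2 and 0 in Media, at least 11.6-fold above siNEG. KRT81, a type II keratin of the hair cortex, had 27, 12 and 17.6 counts in siEF, and 0, 1 and 0 in siNEG and in Media (log2 fold change over siNEG 5.66, SE 0.81). KRT81 lies within the span of KRT86 on the opposite strand and is close to KRT83 and KRT86 in sequence, so the division of reads among them is uncertain. KRT86 had 0, 7 and 3.74 counts in siEF and 0 elsewhere, and KRT83 had none.

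Among the hair keratins below the filter, KRT34 had 25, 9 and 9 counts in siEF and KRT35 had 7, 17 and 17, with 0 in all 6 control libraries. These are at least 5.92-fold and 5.97-fold above siNEG. KRT85 had 4, 4 and 10 counts, at least 2.45-fold, and KRT32 had 4, 3 and 3, at least 1.41-fold, both with 0 in the controls. KRT31 had 5, 1 and 1 counts. KRT37 and KRT84 had at most 2 counts in any library, and KRT38, KRT39 and KRT82 had none in any.

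Promoter sequences from RefSeq on GRCh38.p14, from 250 bases before to 50 after a transcription start, were matched to 32 of the 50 members. A TATA box, searched only as the exact run TATAAA on the strand of the gene between 40 and 15 bases before the start, was found in 14 of the 32. It was in 2.3% of all 35116 promoters, and other forms of the box were not counted. TATAAA in that position was in 7 of the 14 members at 0 in all libraries, in 7 of the 17 with a count in siEF, and in 2 of the 7 tested, KRT10 and KRT40. Anywhere in the window and on both strands, TATAAA was in 19 of the 32, beside 11.5% of all promoters. TGANTCA, an AP-1 site, was in 0 of the 32 beside 7.71%, and GGAAGGAA, an ETS core repeat of the GGAA kind that EWS::FLI1 binds, was in 1, KRT85, beside 3.67%. A match is a run of letters and not a measured site. The 250 bases before the start are shown for KRT40, which rose, and KRT39, its neighbor at 0, for the hair keratins KRT34 and KRT35, which had counts in siEF alone, and for KRT10, which was not called. Capitals mark TATAAA, which begins 29 bases before the start in KRT40 and KRT10, 31 in KRT34 and KRT35, and 85 in KRT39. KRT39 also has the similar run tatataag, which begins 29 bases before its start and was not counted.
KRT40 promoter, chr17:40984327-40984576, minus strand: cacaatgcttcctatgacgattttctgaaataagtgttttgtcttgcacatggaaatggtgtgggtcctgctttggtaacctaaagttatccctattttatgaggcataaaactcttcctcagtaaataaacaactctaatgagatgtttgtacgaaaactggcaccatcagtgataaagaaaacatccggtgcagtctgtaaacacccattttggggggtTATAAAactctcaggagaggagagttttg
KRT39 promoter, chr17:40966949-40967198, minus strand: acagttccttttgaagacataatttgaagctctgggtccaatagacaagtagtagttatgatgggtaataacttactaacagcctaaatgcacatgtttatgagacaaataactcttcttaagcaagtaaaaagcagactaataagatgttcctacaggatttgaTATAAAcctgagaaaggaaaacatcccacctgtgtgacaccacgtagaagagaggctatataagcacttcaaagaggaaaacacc
KRT34 promoter, chr17:41382307-41382556, minus strand: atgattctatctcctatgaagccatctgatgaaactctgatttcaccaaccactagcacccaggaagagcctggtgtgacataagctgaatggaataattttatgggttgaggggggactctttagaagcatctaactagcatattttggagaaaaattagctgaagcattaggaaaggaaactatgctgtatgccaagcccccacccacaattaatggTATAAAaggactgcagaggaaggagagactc
KRT35 promoter, chr17:41481152-41481401, minus strand: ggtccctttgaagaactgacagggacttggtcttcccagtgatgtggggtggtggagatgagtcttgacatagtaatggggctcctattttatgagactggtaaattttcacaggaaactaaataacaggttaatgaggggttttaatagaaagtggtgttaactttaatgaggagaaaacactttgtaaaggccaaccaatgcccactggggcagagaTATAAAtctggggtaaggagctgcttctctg
KRT10 promoter, chr17:40822615-40822864, minus strand: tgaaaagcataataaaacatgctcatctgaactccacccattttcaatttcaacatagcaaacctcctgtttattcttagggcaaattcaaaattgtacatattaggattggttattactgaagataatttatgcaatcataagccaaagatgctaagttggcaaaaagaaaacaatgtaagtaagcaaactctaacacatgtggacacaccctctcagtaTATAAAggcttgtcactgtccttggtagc
KRT40 and KRT10 thus share the box and its distance from the start, with log2 fold changes of 4.34 and -0.27, and KRT34 and KRT35 carry it at the same distance as each other.

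Of the 9 keratins of the inner root sheath and companion layer, 7 were at 0 throughout. KRT75, the companion layer keratin, had 5, 4 and 8 counts in siEF, 0 in siNEG, and 3, 0 and 0 in Media, at least 2.33-fold above siNEG. KRT27 had at most 2 counts, in siEF. Among the 6 remaining members, KRT80, a type II keratin found at desmosomes, was tested. It had 147, 64 and 136 counts in siEF, 26, 32 and 37 in siNEG, and 30, 20 and 25 in Media. The siEF libraries varied more for KRT80 than for KRT8 or KRT18, at 4.37 ± 1.12 CPM, but the lowest stayed above all controls (log2 fold change over siNEG 2.16, SE 0.26, adjusted p = 1.04e-06). KRT222, a keratin-like type I gene, had 0, 2 and 0 counts in siEF, 7.71, 6 and 2.12 in siNEG, and 5, 1 and 6.48 in Media. Its ratio of siEF to siNEG was 0.157, with a counting interval of 0.0175 to 0.666. The siEF and siNEG libraries overlapped in CPM, and the span of KRT222 overlaps another protein-coding gene on the same strand. KRT23 had 1, 3 and 0 counts in siEF, and KRT24, KRT78 and KRT79 had none in any library.

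In all, 34 members did not pass the filter, 15 of them with a count somewhere. A fit with no filter on low counts covered 31 members among 29052 genes, and it added KRT34, KRT35, KRT75 and KRT85 to those called higher. None of these 4 had a count in siNEG, so their calls rest on the siEF counts and are no support. Every siEF library lay above every siNEG library for 5 of the 6 members that passed the filter through the controls, beside 39.8% of genes tested. A count of 0 allows up to 3 counts, which is 0.0905 to 0.145 CPM across the 9 libraries, and a level below that was not detectable at this depth.

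**Figure D3:**
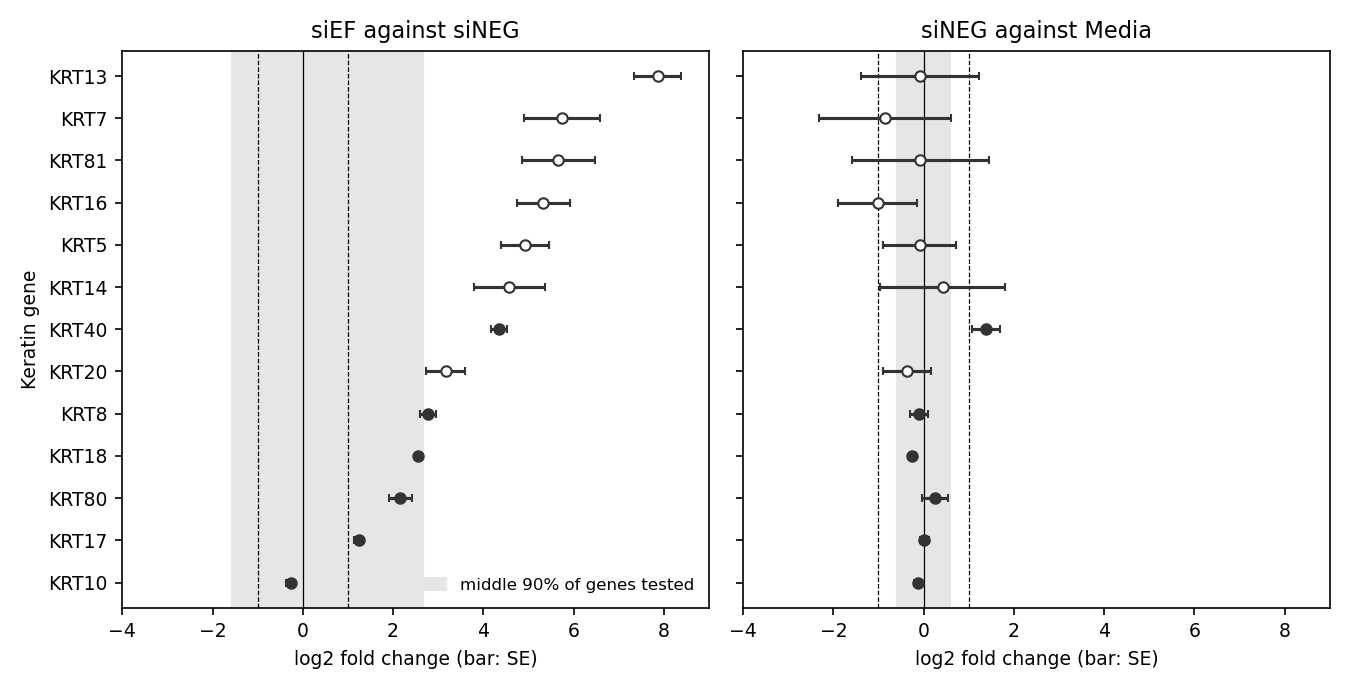
Log2 fold change ± SE of the 13 tested keratin genes with a count in siNEG, for siEF against siNEG (left) and siNEG against Media (right); filled points passed the filter through control libraries, open points through siEF alone, and the band holds the middle 90% of all genes tested. On the left all points but KRT10 lie beyond 1, where the open points had to differ. On the right KRT40 at 1.38 is the point called.

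The control groups differed little over the keratin genes. Between siNEG and Media, 1 member was called, beside 0.429% of genes tested, and 2 had an unadjusted p under 0.05. KRT40 was higher in siNEG than in Media (log2 fold change 1.38, SE 0.31, adjusted p = 0.00509), with no overlap of the libraries. This call was lost with only the 6 libraries compared in the fit (adjusted p = 0.0376), without Media replicate 1 (log2 fold change 1.11, adjusted p = 0.0268), without siNEG replicate 1 (1.32, adjusted p = 0.0171) and without siNEG replicate 2 (1.23, adjusted p = 0.0283). KRT18 was the other member, at -0.26 (SE 0.05, adjusted p = 0.00163), a difference that was not called.

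Against Media, 5 of the 6 members that passed the filter through the controls were called higher in siEF and 0 lower, beside 17.4% and 12.5% of genes tested. The 10 that passed only through siEF had to differ here too, and all were called higher. This comparison shares the siEF libraries with the one against siNEG, so its values are only set beside it. The log2 fold changes over Media were 2.30 (SE 0.05) for KRT18, 2.65 (SE 0.18) for KRT8, 1.26 (SE 0.10) for KRT17 and 2.40 (SE 0.26) for KRT80. For KRT40 the value was 5.71 (SE 0.21), beside 4.34 over siNEG.

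Both types rose in sum. Per kilobase, the summed type I keratins were at 504 ± 17.3 CPM in siEF, 95.7 ± 2.29 in siNEG and 110 ± 8.62 in Media. The summed type II keratins were at 10.0 ± 0.147, 1.2 ± 0.204 and 1.25 ± 0.229. The ratio of type I to type II was 50.3 ± 1.2 in siEF, 81.6 ± 15 in siNEG and 89.6 ± 9.36 in Media, but this order depended on the KRT8 pseudogenes, whose counts were high in the controls. With pseudogene counts added to KRT8, KRT16, KRT17 and KRT18, the ratio was 46.9 ± 1.46 in siEF, 35.6 ± 3.17 in siNEG and 42.3 ± 1.33 in Media, the reverse order, so which type rose more cannot be told from these counts. Without KRT18 the ratio was 6.81 ± 0.0896 in siEF, 18.7 ± 3.06 in siNEG and 17.8 ± 1.05 in Media, and with pseudogene counts added 6.75 ± 0.161, 8.54 ± 0.753 and 8.68 ± 0.616. No test was made of these ratios. Type I RNA exceeded type II RNA in every library.

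The type I genes other than KRT18 lie in 1 cluster on chromosome 17 with 26 members, and the type II genes lie with KRT18 in another on chromosome 12 with 24 members. The widest gap of the chromosome 17 cluster, 391 kb between KRT40 and KRT34, holds keratin-associated protein genes. Of the 12 members before the gap, 6 had a count in siEF and 5 in siNEG. Of the 14 members after it, from KRT34 to KRT17, 13 had a count in siEF and 5 in siNEG, with KRT38 at 0. Neighbors still differed widely. KRT19 lies 1088 bp from KRT15, yet had 1 to 4 counts in siEF where KRT15 had 376 to 689. KRT39 lies 10767 bp from KRT40 and had none. On chromosome 12, the 9 neighbors KRT71, KRT74, KRT72, KRT73, KRT2, KRT1, KRT77, KRT76 and KRT3 were all at 0 in all 9 libraries, between KRT5 and KRT4, which had counts in every siEF library.

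**Figure D4:**
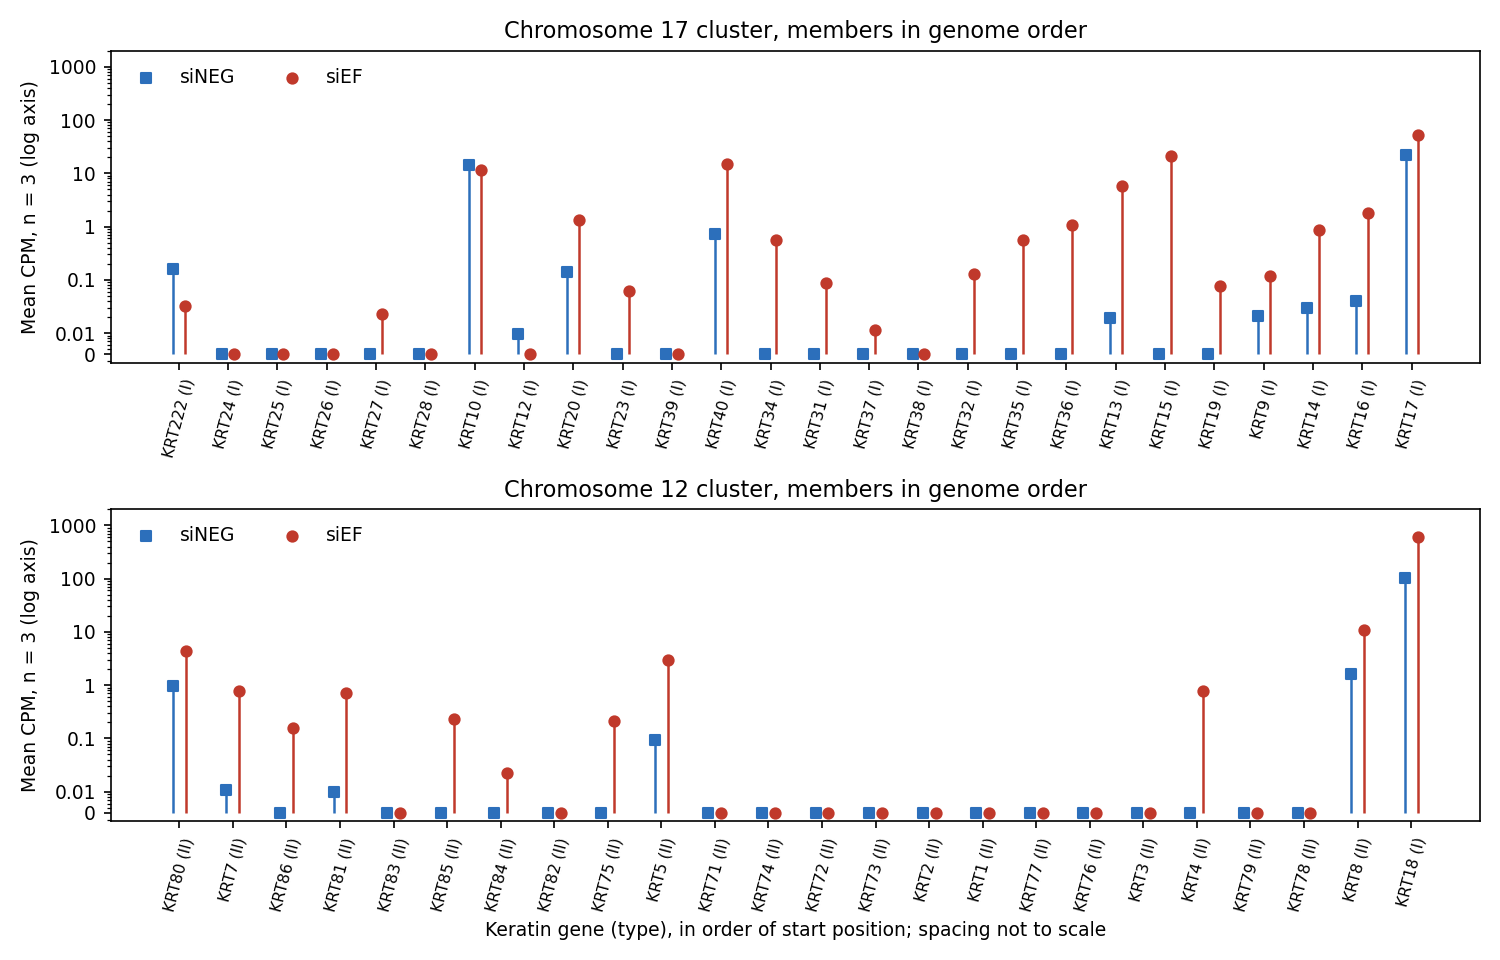
Mean CPM (n = 3, log axis) of each keratin gene in siEF and siNEG, in genome order along the chromosome 17 cluster (top) and the chromosome 12 cluster (bottom), with the type in brackets; spacing is not to scale and 0 is the lowest mark. The run of 9 members at 0 between KRT5 and KRT4 and the pair KRT15 and KRT19 show how neighbors differ.

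Keratin filaments are anchored at desmosomes and run beside other intermediate filaments, and 5 lists of such genes were followed in the same fit, in which 17.1% of genes tested were called higher and 11.7% lower. As for the keratins, list genes that needed the siEF libraries to pass the filter are no support. Counts and medians are therefore given for those that passed through the control libraries, beside the median of 0.05 over all genes tested. The 5 keratins with a letter suffix, KRT6A, KRT6B, KRT6C, KRT33A and KRT33B, were at 0 in all 9 libraries. Of 15 other intermediate filament genes, 10 were tested through the controls, 3 of them called higher and 2 lower, with a median log2 fold change of 0.48. Those higher were NES (1.43, SE 0.12) and INA (1.43, SE 0.06) of neural cells and VIM, the mesenchymal one (1.08, SE 0.05, 2140 ± 71.4 CPM against 1010 ± 27.6). DES, the muscle filament protein, passed through siEF alone (3.41, SE 0.35). The nuclear lamins LMNB1 (-2.06, SE 0.05) and LMNB2 (-1.17, SE 0.05) were lower. VIM thus remained above the summed keratins in siEF.

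Of 19 genes of desmosomes and filament linkers, 8 were tested through the controls, 5 of them called higher and 0 lower, with a median of 1.46. They included JUP (log2 fold change 3.10, SE 0.06), which is plakoglobin, and PKP1 (1.80, SE 0.44), a plakophilin. The other tested plakophilins, PKP2 (-0.72, SE 0.17, adjusted p = 0.00117) and PKP4 (-0.79, SE 0.05, adjusted p = 2.49e-10), lay on the lower side and were not called. EPPK1 (4.97, SE 0.26), a plakin that binds keratin filaments, and PPL (3.98, SE 0.43), of the cornified envelope, passed through siEF alone. PLEC, the linker with the highest mean level, had 371 ± 25.3 CPM in siEF and 139 ± 7.31 in siNEG (1.41, SE 0.06). The desmosomal cadherins were nearly unseen. DSG1, DSG3, DSG4, DSC2 and DSC3 were at 0 in all 9 libraries, and DSG2 and DSC1 had at most 2 and 4 counts. For the list as a whole, the summed level was 741 to 786 CPM in siEF and 339 to 369 in siNEG.

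Markers of epithelial cells and keratinocytes, the cell types that could bring in keratin RNA, were read as 2 lists. Of 21 epithelial identity genes, 6 were tested through the controls, with SFN called higher (log2 fold change 3.07, SE 0.28) and the factor GRHL3 lower (-1.41, SE 0.42, adjusted p = 0.00593), and with a median of -0.18. Another 6 needed the siEF libraries to pass the filter, though not all of them were highest in siEF. CDH1, the epithelial cadherin, had 16 to 28 counts in siEF, 0 in siNEG and 2 or 3 in Media, at least 9.74-fold above siNEG. Also among them were the transcription factors EHF (5.94, SE 0.29) and ELF3 (3.30, SE 0.33) and the tight junction gene CLDN4 (3.53, SE 0.48). ESRP2, another of the 6, did not differ, at 0.297 ± 0.045 CPM in siEF and 0.298 ± 0.159 in siNEG (-0.01, SE 0.64). OCLN, the member with the highest mean level, was at 30.3 ± 0.689 CPM in siEF and 33 ± 0.87 in siNEG, and was not called. EPCAM, also among the 6 and named after its values were seen as the list gene called between siNEG and Media, had 9 to 13 counts in siEF, 0 to 3 in siNEG and 10 to 13 in Media. Its log2 fold change was 3.17 (SE 0.69) for siEF over siNEG and -3.15 (SE 0.68) for siNEG over Media. For siEF over Media it was 0.02 (SE 0.49). TP63, the basal keratinocyte factor, had 7 to 14 counts in siEF and 3 to 6 in siNEG and was not tested. The summed level of the list was 51.9 to 54.4 CPM in siEF, 36.9 to 38.9 in siNEG and 35.8 to 38.8 in Media, and its part in the keratin values was not tested.

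Of 20 keratinocyte and skin markers, 3 were tested through the controls, 2 of them called higher and 0 lower, with a median of 1.37. They were TGM3 (log2 fold change 2.46, SE 0.14, 405 to 598 counts in siEF and 86 to 135 in siNEG) and TGM1 (1.37, SE 0.25), both transglutaminases, and TGM3 was also the member with the highest mean. CNFN, the other marker tested through the controls, had 9 to 22 counts in siEF and 6 to 16 in siNEG. It was not called (0.81, SE 0.56, edgeR adjusted p = 0.198). FLG, which needed siEF to pass the filter, had 5 to 12 counts in siEF, 1 to 4 in siNEG and 2 to 12 in Media, and was not called. The remaining markers were at or near 0. Of the 20, 13 were at 0 in all 9 libraries, among them the cornified envelope genes IVL and LORICRIN, the SPRR genes and KRTDAP, and the sweat gland gene DCD. At most 3 counts in every library were found for 15 of the 20. The summed level ran from 21.7 to 24.3 CPM in siEF, 4.26 to 5.87 in siNEG and 4.23 to 4.98 in Media.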

How the data were processed

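RNA-seq of TC32 cells at 30 h was compared in 9 libraries, 3 per group, with groups and replicate numbers taken from the sample titles. The authors deposited expected counts per gene, made with STAR and RSEM on hg38 and not scaled for depth. The submitters' processing notes also name cutadapt 2.10, FastQC and DESeq2 1.32.0, while the annotation release and strand setting are not given in the sources used here. Expected counts were rounded and tested with edgeR 4.0.16 in R 4.3.3 (filterByExpr, which here asked for 0.329 CPM in 3 libraries and kept 16093 genes, then TMM, a mean per group over all 9 libraries, the quasi-likelihood test and Benjamini-Hochberg adjustment over all genes tested). Folds against a group at 0 are lower bounds from a floor of 3 counts per library, and counting intervals are 95%. Total counts limit the precision of low genes. The procedure was checked on simulated data.

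GENCODE 44 on GRCh38, the same build, gave positions and canonical transcript lengths, and 60306 (99.5%) of the table's identifiers were found in it. No libraries held identical values, and pairs within a group differed by more than sampling noise (chi-square per degree of freedom 3.57 to 23.2). The members and gene lists were chosen with earlier results of these data known. Named were all tested members, untested members with at least 3 counts in a library, FLI1 and, from each list, up to 4 called rises, 4 called falls and the highest mean. Genes named outside this rule (other members at or near 0, KRT8P12, KRT10-AS1, PKP2, PKP4, SFN, EPCAM, ESRP2, TP63, CNFN, FLG and list genes at or near 0) were chosen after their values were seen. The alternatives tried were upper quartile or RLE scaling, DESeq2 1.42.0, leaving the filter out, fewer libraries, a replicate block, an adjusted p under 0.05 and pseudogene counts added.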

Additional observations from a re-analysis of the deposited data

How the results depend on the processing

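Under the alternatives run, 15 to 19 keratin genes were called higher in siEF than in siNEG, and none was called lower by edgeR or DESeq2. These numbers include the 10 members that passed the filter only through siEF, whose staying called is no support. Of the members that passed through the controls, KRT18, KRT8, KRT17, KRT80 and KRT40 stayed called under every alternative. The unadjusted p of KRT10 was 0.0123 as reported and ran from 0.00145 to 0.0826, above 0.05 with upper quartile scaling and without siEF replicate 1 or siNEG replicate 3. Of 244 values of log2 fold change under alternatives, all 244 kept their direction and side of the threshold, those of members that passed only through siEF included. KRT10 ranged from -0.37 to -0.17. The 1 call between siNEG and Media fell to 0 with only the 6 libraries compared in the fit, and to between 0 and 1 on leaving out single libraries. That call rests on 5 to 29 counts per library. The replicate numbers did not pair the samples: deviations of same-numbered libraries correlated at -0.088 to 0.048 over 9 pairs, and a replicate block left 15 members called higher and changed no keratin call. The KRT15 bound ranged from 220 to 248. Upper quartile scaling shifted the median of all genes by 0.09 on the log2 scale. Adding pseudogene counts, chosen after seeing the data, reversed 2 differences between siEF and siNEG: that of the type I to type II ratio, from -31.3 to 11.3, and that of the KRT18 to KRT8 ratio, from -14.6 to 32.5.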

Other observations

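The keratin-associated proteins, which cross-link hair keratins and whose genes lie inside and beside the chromosome 17 cluster, were examined after their values were seen. Of 112 such genes in the table, 18 had a count in any library and 3 were tested. KRTAP3-1 had 849 to 1097 counts in siEF, 295 to 381 in siNEG and 176 to 264 in Media, and was higher in siEF than in siNEG (log2 fold change 1.97, SE 0.12, edgeR adjusted p = 3.64e-10). KRTAP4-7 had 1 or 2 counts in siEF, 4 to 16 in siNEG and 12 to 17 in Media, and was lower in siEF (-2.59, SE 0.72, adjusted p = 0.00392). KRTAP3-3 had 50 to 64.68 counts in siEF and 34.85 to 55.94 in siNEG and was not called (0.64, SE 0.24, adjusted p = 0.0232). KRTAP3-1 thus had more RNA reads in the control libraries than any hair keratin gene.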
